A study of Paralichthys olivaceus with 24 samples.

Results

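The transcripts described here are 170 array probes from the spleen of a flatfish, the Japanese flounder (Paralichthys olivaceus). Their signal was higher in poly(I:C) fish than in water fish at 15 °C and 3 h, and less or not so at 24 h. They were chosen from the deposited log2 values among probes for assembled contigs (target names that start with JFC) that had at least 1 group with every array well above background. A probe was taken if its mean over poly(I:C) arrays was at least 1 log2 unit above the water mean at 15 °C and 3 h, and less than 0.5 above it at 24 h. The rule found 170 of 14481 probes, out of 13377 that could be tested and 13026 tested contig probes. Each stands for its own contig. Because the 12 arrays at 15 °C chose the members, their values at 15 °C are a description. The 12 arrays at 25 °C were not used by those thresholds, only by the background filter, and give the effects that are tested. The p-values are not independent of the arrays at 15 °C, since the spread of each probe was taken over all arrays of the study.

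The study compared 8 groups of 3 single-colour arrays, each hybridised with Cy3-labelled spleen RNA. Fish received poly(I:C) and were kept at 25 °C for 24 h or 3 h, or at 15 °C for 24 h or 3 h, and fish given DEPC-treated water instead formed the control at each temperature and time. The labels give neither the age nor the strain of the fish, and do not say that the arrays of a group held separate fish. The p-values therefore reflect how far these arrays varied, which may be technical variation. In whole spleen, fewer cells of a type and less RNA per cell cannot be told apart.

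Poly(I:C) is a synthetic double-stranded RNA that stands in for the RNA of a virus. In vertebrates, fish included, such RNA is sensed by Toll-like receptor 3 in endosomes and by RIG-I-like receptors in the cytosol, and both routes lead to the production of interferons and inflammatory cytokines. Many early response genes are switched on within hours and shut off again, whereas antiviral genes downstream of interferon stay on for longer. The spleen is one of the main immune organs of bony fish, and flounder, like other fish, take the temperature of the water around them. The files pair no probe with a gene, and 0 of the 14478 target names on the array matched the gene table used here, so the probes are given by their own names, with no gene, function, cell type marker or sequence.

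All arrays held 14661 non-control spots. Per array, 78.4% to 95% of probes were well above background, and the processed signal had a 75th percentile between 348.1 and 863.5 units. A signal is given on the log2 scale with this percentile of its own array set to 0. An effect is the poly(I:C) mean minus the water mean of these values, and a probe is called where limma's Benjamini-Hochberg adjusted p over all 13377 probes is under 0.05. Of the members, 118 were detected, that is, well above background on all 3 arrays, in all 8 groups, and 9 in 1 group. On the poly(I:C) arrays at 15 °C and 3 h, 148 members were detected and 22 were not, so the value that chose those 22 was read partly at background level. Over all tested probes 1969 were not detected there. On the water arrays at 15 °C and 3 h, 42 members were not detected, against 925 of all tested probes. The value that chose those 42 was also read partly at background level. A single member passed the background filter only through poly(I:C) at 15 °C and 3 h. Of the 4080 member values, 2 were left out because the scanner software marked the spot as an outlier.

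The effect that chose the members ran from 1.001 to 5.34 at 15 °C and 3 h, with a median of 1.39, and 105 members lay under 1.5. At 24 h it ran from -4.54 to 0.498, and 109 members were below 0. Closest to the first threshold were CUST_11199 just inside, at 1.001, and CUST_13944 just outside, at 0.995. Closest to the second were CUST_1162 inside, at 0.498, and CUST_1934 outside, at 0.511. Values this close to a limit differ by far less than the spread between arrays.

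The members differed in how the arrays that chose them lay, which is given as a description. In 55 of them, a count not made over all tested probes, all 3 poly(I:C) arrays at 15 °C and 3 h lay above all 6 water arrays at 15 °C that had a value. In the other 115 they did not, and there the median signal was low on replicates 2 and 3 of water at 15 °C and 3 h. This did not hold for every member. In 59 of the 115 those 2 arrays were the lowest of all 24, and replicate 1 was the highest of the 3 in 88. In some it was the lowest instead, as in CUST_13670, with 1.75, 4.03 and 5.28 on replicates 1 to 3. Over these 115, with each probe centred on its mean of 24 arrays, the median per array was 0.41, -0.221 and 0.648 in poly(I:C) at 15 °C and 3 h, against 0.472, -1.52 and -1.81 in water. By this median, the first water array was as high as the poly(I:C) arrays, and the other 2 were lower than any other array of the study. In 60 of the 170 members those 2 arrays had the lowest signals of all 24, and in 65 the first water array was at or above the poly(I:C) mean.

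The median SD between the 3 water arrays at 15 °C and 3 h was 0.299 over the 55 members and 1.5 over the 115, against 0.216 over all tested probes. Without replicate 1 of that water group the rule would have taken 320 probes, without replicate 2 155, and without replicate 3 137. Of the 170, 151, 118 and 99 kept an effect of at least 1 without replicate 1, 2 and 3. The arrays lay on 3 slides, the glass plates that carry several arrays each. The 2 low arrays lay on different slides, and replicate 3 was the only array of the 2 groups on slide 2, so the last count is also the one within slide 1.

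In the common fit, 42 of the 170 members were called higher at 15 °C and 3 h, 40 of them among the 55, against 1.7% of all tested probes. At 15 °C and 24 h, 2 members were called higher and 12 lower, against 18.9% and 18.8% of all tested probes. Nothing is read from these shares, since the same arrays chose the members. The split into 55 and 115 was made after the values were seen, and it is used below to describe the members at 25 °C, with no test of the split itself. The fit took the spread of each probe from all 24 arrays, so the arrays that made the split also enter the SEs at 25 °C. Counts of calls in the 55 and the 115 therefore depend in part on the split, whereas the effects in this fit use only arrays at 25 °C.

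**Figure D1:**
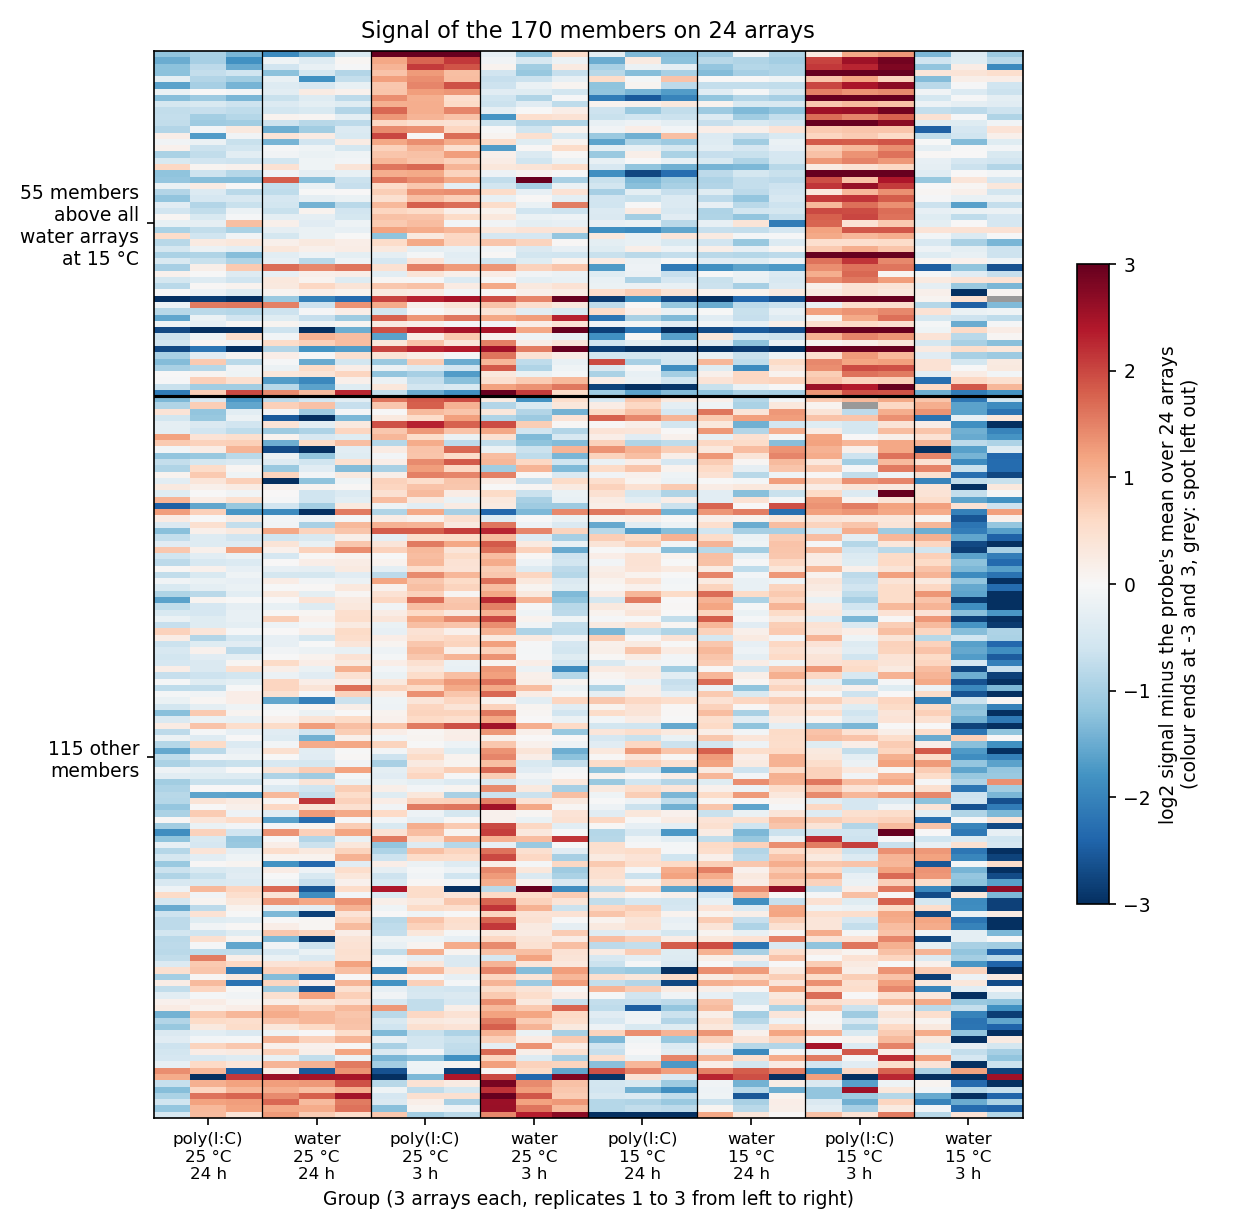
Heat map of the 170 members (rows) on 24 arrays (columns, 3 per group), as log2 signal minus each probe's mean over the arrays. Rows are split into the 55 members with poly(I:C) arrays above all water arrays at 15 °C (top) and the 115 others (bottom), each ordered by the effect at 25 °C and 3 h. In the top block the poly(I:C) columns at 3 h are raised at both temperatures, and in the bottom block the darkest columns are replicates 2 and 3 of water at 15 °C and 3 h.

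**Figure D2:**
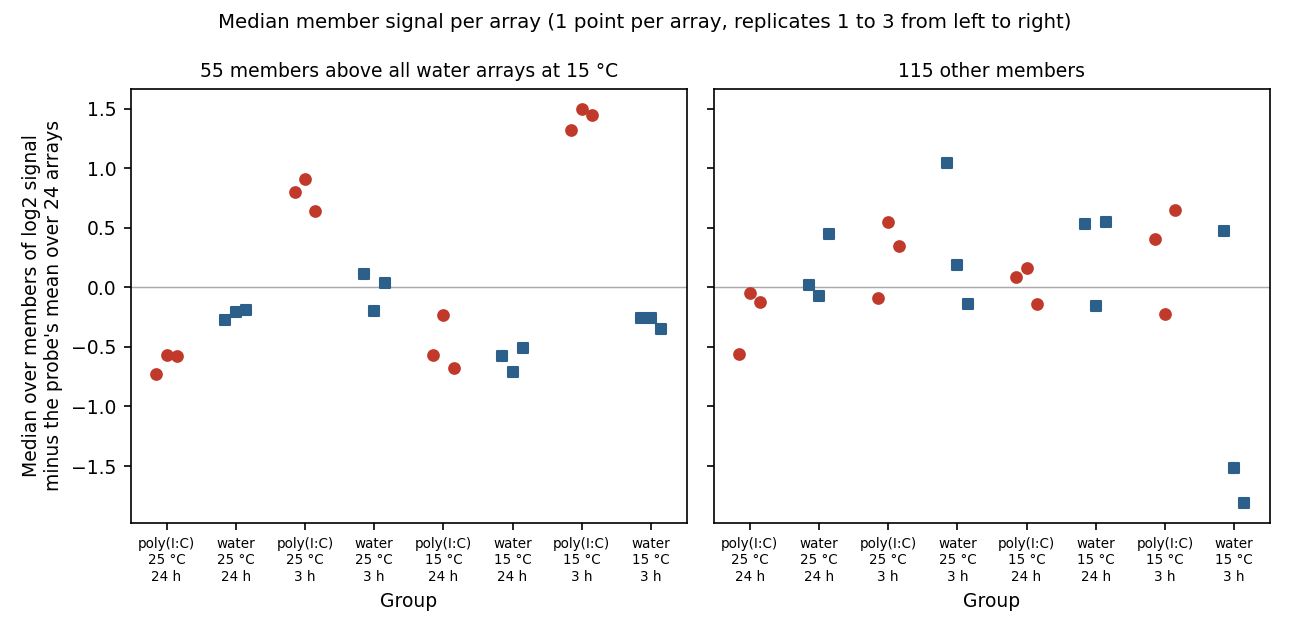
Median centred log2 signal of the 55 members (left) and the 115 others (right) on each array, with red circles for poly(I:C) and blue squares for water. On the left, the poly(I:C) arrays at 25 °C and 3 h sit between 0.639 and 0.909 and those at 15 °C and 3 h between 1.32 and 1.5, above all other arrays. On the right, 2 water arrays at 15 °C and 3 h sit at -1.52 and -1.81.

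On the deposited values, the largest effects at 15 °C and 3 h belonged to CUST_7075 (contig JFC03540_2_code) and CUST_7260 (contig JFC24307_1_code), with 5.34 and 5.23. CUST_7075 had signals of 1.88, 2.07 and 2.60 on the poly(I:C) arrays, against -3.51, -2.79 and -3.16 on the water arrays. At 15 °C and 24 h it had -6.19, -5.56 and -6.45 in poly(I:C) fish, against -6.08, -5.90 and -6.01 in water fish, with every array of both groups at background. This probe was therefore high in poly(I:C) fish at 3 h, intermediate in water fish at 3 h and at background in both at 24 h. The lowest effects at 15 °C and 24 h were those of CUST_6001 (contig JFC04442_1_code), -4.54, and CUST_9324 (contig JFC16398_1_code), -2.99. CUST_6001 had 0.18, -1.47 and 0.28 in poly(I:C) fish at 15 °C and 24 h, against 4.85, 4.04 and 3.71 in water fish. Both probes are among the 115, and for them the values at 24 h are a fall below the control, not a return to it.

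Of the 170 members, 26 were higher and 10 lower in poly(I:C) fish than in water fish at 25 °C and 3 h. Over all tested probes 17.7% were called higher and 29.3% lower, so 15.3% of members raised is near the background and 5.88% lowered is below it. The calls were uneven between the member sets. Of the 55 members, 25 were raised and 4 lowered, with a median effect of 0.75, whereas of the 115 others 1 was raised and 6 lowered, with a median of -0.11. The median over all tested probes was -0.15. Among the 26 raised members the effect ran from 0.74 to 4.80, with a median of 1.32, and among the 10 lowered ones from -3.38 to -1.32. The values 4.80 and -3.38 were each read against a group at background. The fit is less precise for members than for most probes, with a median SE of 0.544 for the 170, 0.309 for the 55 and 0.618 for the 115, against 0.201 for all tested probes, and an uncalled member is not shown to be unaffected. These SEs include the spread at 15 °C, where the split was made, so the calls are not independent of the split. How far this made the calls uneven was not tested.

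The poly(I:C) arrays of this comparison all lay on slide 2 and the water arrays all on slide 3, so no within-slide value exists. Only poly(I:C) at 25 °C and 24 h had arrays on both, with replicate 1 on slide 2 and replicates 2 and 3 on slide 3. A slide term for the poly(I:C) arrays at 25 °C and 3 h thus rests on how that replicate 1 differed from the other 2, here and below. With slide as a term in the fit, 16 members were called, 15 higher and 1 lower, and all 16 were among the 55. These are 9.41% of the members and 29.1% of the 55, against 17.1% of all tested probes called in either direction in that fit. Without the slide term, 52.7% of the 55 were called in either direction, near the 47% of all tested probes. With the slide term, the median effect over the 55 was 0.85. The array centring also moved the balance of calls. Scaling each array to its median gave 30 members raised and 6 lowered, and it moved the median of all tested probes to 0.07, a shift that enters every effect at this setting.

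The member raised most at 25 °C and 3 h was CUST_9380 (contig JFC19775_1_code). Its signals were -1.85, -0.85 and -0.64 on the poly(I:C) arrays, against -5.86, -6.83 and -5.07 on the water arrays. The groups did not overlap, and the water arrays were all at background, so the change is given as a bound. It was at least 10.6-fold higher in poly(I:C) fish, where the fold is taken against the lowest signal well above background on each water array or the probe's own signal if higher, and limma's adjusted p was 1.1e-07. At 15 °C and 3 h the same probe had -5.35, -4.48 and -4.32 in poly(I:C) fish, against -6.96, -6.03 and -6.70 in water fish, and was detected on 2 of the 3 poly(I:C) arrays.

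CUST_10106 (contig JFC27267_1_code) was the next by the size of its change among raised members with separate groups, and the only raised one of the 115. It had 2.93, 3.18 and 3.28 in poly(I:C) fish, against 1.60, -0.47 and 1.86 in water fish. The poly(I:C) arrays were close together and above all water arrays, among which replicate 2 was low. The change was 2.13 ± 0.61 (SE, n = 3 each; limma, adjusted p = 0.0075). Without replicate 2 of water it was 1.40 and no longer called, with an adjusted p of 0.06. A slide term gave 2.37, with an adjusted p of 0.18.

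CUST_3444 (contig JFC24335_1_code) had opposite signs at the 2 temperatures. At 25 °C and 3 h it had -6.07, -6.86 and -7.17 in poly(I:C) fish, against -1.90, -3.26 and -4.82 in water fish. At 15 °C and 3 h it had -4.04, -3.45 and -3.48 in poly(I:C) fish, against -6.83, -7.47 and -7.13 in water fish. The groups were separate in both settings, with poly(I:C) on the low side at 25 °C and on the high side at 15 °C. It was detected on 0 of 3 poly(I:C) and 2 of 3 water arrays at 25 °C and 3 h, and was at least 3.54-fold lower there (limma, adjusted p = 0.001). With slide as a term the difference at 25 °C was 0.09, with an adjusted p of 0.97.

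CUST_6001, the member with the lowest effect at 15 °C and 24 h, also fell at 25 °C and 3 h. Its signals were 4.49, 2.65 and 2.87 in poly(I:C) fish, against 5.12, 6.05 and 6.40 in water fish, and did not overlap. The change was -2.52 ± 0.56 (SE, n = 3 each; limma, adjusted p = 0.0011). A slide term gave -1.36, with an adjusted p of 0.39.

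**Figure D3:**
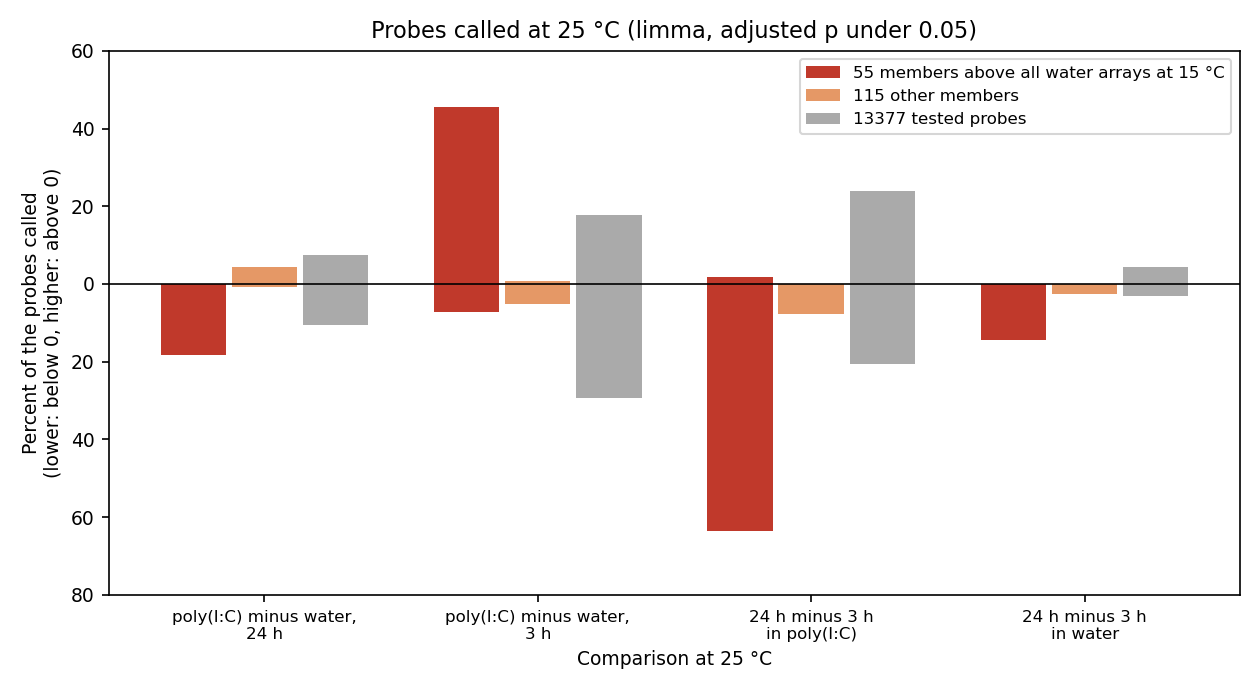
Percent of probes called higher (above 0) or lower (below 0) in 4 comparisons at 25 °C, for the 55 members, the 115 other members and all 13377 tested probes. The 55 members were called higher at 3 h in 45.5% and lower at 24 h in 18.2%, and between 24 h and 3 h in poly(I:C) fish 63.6% of them were lower.

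Few members were called above the water level at 25 °C and 24 h. In all, 5 members were raised and 11 lowered, that is 2.94% and 6.47%, against 7.5% and 10.6% of all tested probes, so both shares are below the background. The 55 held 0 raised and 10 lowered members, with 1 raised and 16 lowered at an unadjusted p under 0.05. The 115 held 5 raised and 1 lowered. The effects of the 11 lowered members ran from -1.58 to -0.57, with a median of -0.96. Of the 26 members raised at 3 h, 22 were not called at 24 h and 4 were lowered. None was raised at both times. These counts, and those given below for the 26, were not made over all tested probes raised at 3 h.

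The counts at 24 h moved with the processing and with single arrays. With normexp background correction 0 of the 170 were called by limma, with 9 at an unadjusted p under 0.05. Over all tested probes the share called fell from 18.1% to 1.61% with that correction. It added 50 units to each signal, which by itself shrinks log2 differences between dim signals, here and below. Leaving out 1 poly(I:C) array gave 7 called members (replicate 1) or 4 (replicate 3), and leaving out 1 water array gave 4 (replicate 1) or 9 (replicate 2). On slide 3 alone, which held 2 poly(I:C) and all 3 water arrays, 2 members were called, both lower. With slide as a term 9 were called, 4 higher and 5 lower, or 5.29% of the members, against 12.1% of all tested probes. Scaling each array to its median gave 5 raised and 7 lowered members.

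CUST_13670 (contig JFC00841_1_code) had the largest called rise at 25 °C and 24 h. It had 5.58, 5.88 and 6.67 in poly(I:C) fish, against 2.97, 2.34 and 5.33 in water fish. The groups did not overlap, though the third water array came close to the lowest poly(I:C) array, and this is a bright probe in most groups. The change was 2.49 ± 0.76 (SE, n = 3 each; limma, adjusted p = 0.029). CUST_12995 (contig JFC17102_1_code) had 0.33, -0.25 and 0.71 in poly(I:C) fish, against -1.63, -2.27 and -0.45 in water fish. Its change was 1.71 ± 0.54 (SE, n = 3 each; limma, adjusted p = 0.036). The call of CUST_13670 was lost without replicate 2 or 3 of poly(I:C) or replicate 1 or 2 of water, and that of CUST_12995 without replicate 1 or 3 of poly(I:C) or replicate 1 or 2 of water, with adjusted p-values from 0.053 to 0.14. On slide 3 alone the changes were 2.72 and 1.68, with adjusted p-values of 0.12 and 0.13.

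CUST_12488 (contig JFC07820_1_code) had the largest called fall at 25 °C and 24 h. It had -5.51, -4.32 and -3.72 in poly(I:C) fish, against -2.83, -3.07 and -2.90 in water fish, and was detected on 2 of the 3 poly(I:C) arrays. The change was -1.58 ± 0.46 (SE, n = 3 each; limma, adjusted p = 0.025). Without replicate 1 of poly(I:C), the lowest array, it was -1.09 and not called, with an adjusted p of 0.13, and without replicate 1 or 3 of water the adjusted p was 0.072 or 0.064. Slide 3 alone gave -1.09, with an adjusted p of 0.057, and normexp background correction gave -0.63, with an adjusted p of 0.83. At 15 °C and 3 h the same probe was at least 4.71-fold higher in poly(I:C) fish, with all 3 water arrays at background, a difference that helped choose it.

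The change between the times was tested directly, as the effect at 24 h minus the effect at 3 h at 25 °C. It was called negative in 23 members and positive in 2, or 13.5% and 1.18%, against 13.1% and 12.7% of all tested probes. The share of negative changes is thus at the background over all 170 members, and the share of positive ones is below it. Within the 55 the count was 22 negative and 2 positive, with a median change of -0.94, and within the 115 it was 1 negative and 0 positive, with 5 negative and 4 positive at an unadjusted p under 0.05. Of the 26 members raised at 25 °C and 3 h, 21 had a called negative change. That count leans to negative changes, because the same 3 h arrays picked the 26 and enter the change. Adding slide to the fit left 23 members with a negative change and 0 with a positive one. These are 13.5% of the members, against 16.6% of all tested probes called in either direction in that fit. Among the 55, 21 (38.2%) were called there.

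For CUST_9380 the change was called negative (limma, adjusted p = 3.1e-05), but 3 of the 4 groups it is made from were at background, so its size is not given here. With normexp background correction in place of the scanner's own it was not called (adjusted p = 0.18). The later signals at 25 °C were -6.80, -6.60 and -6.99 in poly(I:C) fish, against -7.50, -7.06 and -6.06 in water fish, with no array above background in either group. CUST_6747 (contig JFC19477_1_code) had -1.38, -0.78 and -0.41 in poly(I:C) fish at 25 °C and 3 h, against -2.63, -3.001 and -2.71 in water fish. At 24 h it had -4.01, -3.53 and -4.35 in poly(I:C) fish, against -2.66, -2.91 and -2.47 in water fish. The probe was above the water level at 3 h and below it at 24 h, without overlap at either time. Its effect was 1.92 at 3 h and -1.29 at 24 h, and the change was -3.21 ± 0.49 (SE; limma, adjusted p = 9.9e-05), not called with normexp background correction (adjusted p = 0.14).

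Both members with a positive change were below the water level at 3 h. CUST_7720 (contig JFC04897_1_code) had 0.63, 0.08 and -0.46 in poly(I:C) fish at 25 °C and 3 h, against 1.28, 1.55 and 1.77 in water fish. At 24 h it had 0.76, 1.51 and 1.28 in poly(I:C) fish, against -0.89, -1.15 and 0.95 in water fish, and the groups overlapped. The change was 3.00 ± 0.82 (SE; limma, adjusted p = 0.01), and all water arrays at 24 h lay below those at 3 h. CUST_835 (contig JFC26557_1_code) had 0.09, -0.79 and -0.69 in poly(I:C) fish at 3 h, against 0.95, 1.10 and 1.34 in water fish. At 24 h it had -0.91, -1.29 and -1.27 in poly(I:C) fish, against -1.07, -1.85 and -0.59 in water fish. The change was 1.61 ± 0.49 (SE; limma, adjusted p = 0.021), and here too the water level itself was lower at 24 h while the groups overlapped. With slide as a term neither change was called, with adjusted p-values of 0.082 for CUST_7720 and 0.051 for CUST_835. The call of CUST_835 was also lost without replicate 2 or 3 of poly(I:C) at 3 h or replicate 2 of water at 24 h, with adjusted p-values of 0.058, 0.051 and 0.063.

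**Figure D4:**
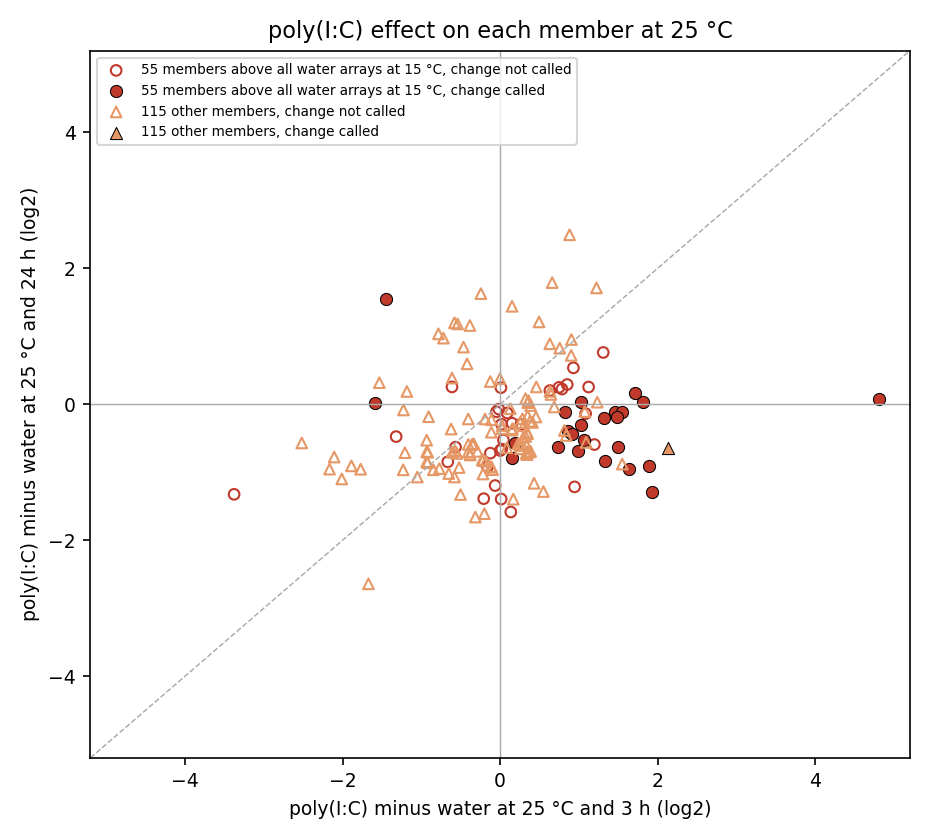
Effect of poly(I:C) on each of the 170 members at 25 °C, at 24 h (vertical) against 3 h (horizontal), in log2 units, with filled symbols where the change between the times was called. The dashed line marks equal effects. The filled circles below it are the 22 members of the 55 whose effect fell between the times, most of them raised at 3 h and near or below 0 at 24 h.

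Within poly(I:C) fish at 25 °C, the members' own signal was lower at 24 h than at 3 h in 44 of 170 and higher in 1. These are 25.9% and 0.588% of the members, against 20.7% and 23.9% of all tested probes. Of the 55 members, 35 were lower and 1 was higher, with a median of -1.17, and of the 115 others 9 were lower. Slide 2 held all the arrays at 3 h and 1 array at 24 h, and slide 3 the other two. Adding slide to the fit gave 34 lower and 1 higher over the 170, or 20.6% called, against 29.3% of all tested probes in that fit. Of the 26 members raised by poly(I:C) at 3 h, 25 were lower in poly(I:C) fish at 24 h than at 3 h. Here too the poly(I:C) arrays at 3 h both picked the 26 and enter the difference, which favours lower calls.

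The lower signal at 24 h was in part shared by water fish. In water at 25 °C, 11 members were lower at 24 h than at 3 h and 0 were higher, or 6.47% and 0%, against 3.18% and 4.48% of all tested probes. At an unadjusted p under 0.05, 22 were lower and 2 higher. Of the 44 members lower in poly(I:C) fish, 8 were also lower in water fish. All 6 arrays of the water comparison lay on slide 3. The count was 7 without replicate 1 or without replicate 2 at 24 h, 18 without replicate 3 at 24 h, and 6 without replicate 3 at 3 h. In a fit of the 6 water arrays alone it was 0, with 24 members at an unadjusted p under 0.05.

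CUST_7075 and CUST_7260 were among the members lower in both treatments. CUST_7075 had -1.48, -1.10 and -0.90 in poly(I:C) fish at 25 °C and 3 h, against -0.94, -2.22 and -0.13 in water fish. At 24 h it had -6.10, -6.73 and -6.61 in poly(I:C) fish, against -4.00, -7.01 and -4.85 in water fish. The probe was thus well above background in both treatments at 25 °C and 3 h, with overlapping signals, and near or at background in both at 24 h. Its effect at 25 °C and 3 h was -0.06 ± 0.55 (SE, n = 3 each; limma, adjusted p = 0.94). In poly(I:C) fish no array was above background at 24 h, and the signal was at least 15.4-fold lower than at 3 h (limma, adjusted p = 2.8e-07). In water fish 1 of 3 arrays was above background at 24 h, and the difference from 3 h was -4.19, read mostly against background (limma, adjusted p = 0.00022). CUST_7260, with the same counts of detected arrays at 24 h, was at least 16.1-fold lower at 24 h in poly(I:C) fish (limma, adjusted p = 6e-09) and differed by -3.88 in water fish (limma, adjusted p = 4.2e-05). Whether the contigs of these 2 probes come from 1 transcript was not tested.

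CUST_9569 (contig JFC00907_1_code) behaved alike at a higher level. At 25 °C and 3 h it had 0.57, 0.85 and 0.998 in poly(I:C) fish, against 0.50, 0.01 and 1.86 in water fish. At 24 h it had -5.25, -4.31 and -4.47 in poly(I:C) fish, against -2.57, -3.48 and -3.80 in water fish. The treatments overlapped at 3 h, and at 24 h poly(I:C) fish lay below water fish. The effect was 0.01 at 3 h and -1.39 ± 0.44 at 24 h (SE, n = 3 each; limma, adjusted p = 0.98 and 0.036). The effect at 24 h was no longer called without replicate 1 or 3 of poly(I:C) or replicate 1 or 2 of water, with adjusted p-values from 0.056 to 0.16. The difference between 24 h and 3 h was -5.48 in poly(I:C) fish and -4.08 in water fish (limma, adjusted p = 1.7e-08 and 5.7e-05). At 15 °C and 3 h this probe had 3.70, 4.13 and 4.56 in poly(I:C) fish, against -1.38 and -0.99 on the first 2 water arrays. The spot of the third water array was marked as an outlier and dropped from the fit, which gave an effect of 5.32 there, whereas the deposited values, which include that spot, gave 2.15. With normexp background correction the effect at 25 °C and 24 h was -0.60, with an adjusted p of 0.94. Fitted on the deposited values, it had an adjusted p of 0.55, and the difference between the times in water fish one of 0.11.

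In contrast to these, the fall of CUST_9380 between the times was seen in poly(I:C) fish. It was at least 15.9-fold lower there at 24 h than at 3 h (limma, adjusted p = 1.1e-08), with no array above background at 24 h, while in water fish no array was above background at either time. The single member higher at 24 h in poly(I:C) fish was CUST_3942 (contig JFC09244_1_code), with -3.07, -2.97 and -3.18 at 24 h, against -4.25, -4.06 and -4.74 at 3 h. The times did not overlap, and the change was 1.27 ± 0.25 (SE, n = 3 each; limma, adjusted p = 0.0004). In water fish its signals were -2.71, -2.67 and -2.41 at 24 h, against -2.73, -3.25 and -3.11 at 3 h, which lay close to the poly(I:C) signals at 24 h. With normexp background correction in place of the scanner's own, the time differences were smaller and not called, -1.10 for CUST_7075 in water fish (adjusted p = 0.57), and -1.51 for CUST_9380 and 0.93 for CUST_3942 in poly(I:C) fish (adjusted p = 0.061 and 0.081). The 50 units added there shrink differences between dim signals such as these, but that correction also used other spot signals and another background method. Which of these made the values smaller was not tested, and these calls depend on the processing.

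**Figure D5:**
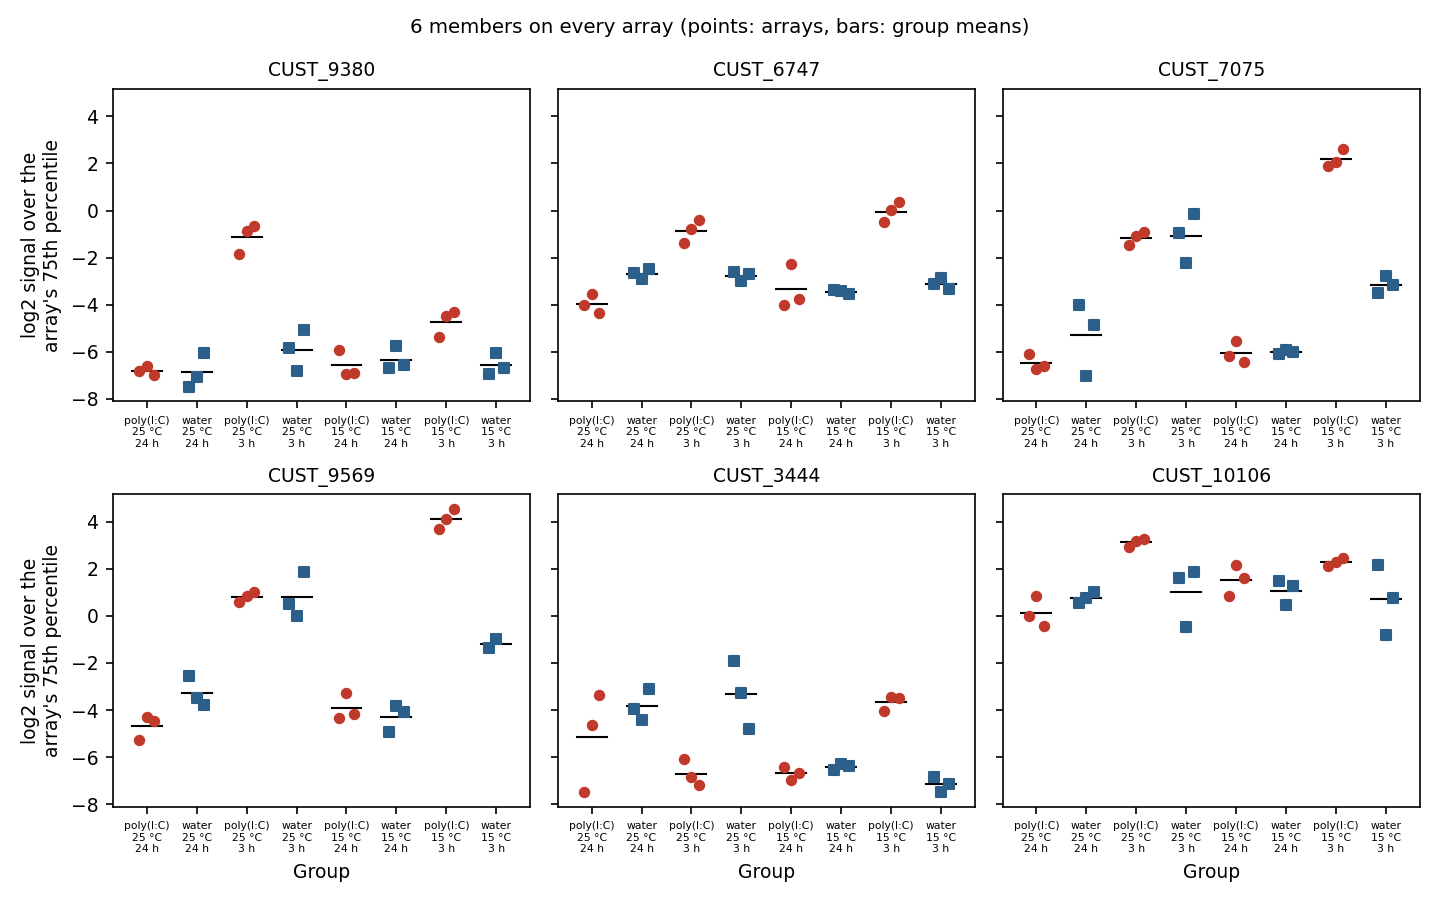
Signal of 6 members on every array, in log2 units relative to the 75th percentile of the array, with red circles for poly(I:C), blue squares for water and black bars for group means. CUST_9380 and CUST_6747 are raised in poly(I:C) fish at 3 h at both temperatures, CUST_7075 and CUST_9569 are high at 25 °C and 3 h in both treatments, CUST_3444 has opposite signs at 25 °C and 15 °C, and CUST_10106 is shown as the one raised member of the 115. One array of CUST_9569 has no point, since its spot was left out.

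Probes with the same early threshold that kept the effect gave a comparison. A further 147 contig probes had an effect of at least 1 at 15 °C and 3 h, and of at least 0.5 at 15 °C and 24 h. Of these 147, 114 were raised and 2 lowered at 25 °C and 3 h, with a median effect of 2.39, against 26 and 10 of the 170 members with a median of 0.13. The later time at 25 °C had 32 raised and 7 lowered, against 5 and 11 of the members. A negative change of the effect between the times at 25 °C was called in 105 of the 147, against 23 of the 170. Of the 114 raised at 3 h, 78 were not called at 24 h, 5 were lowered and 31 were raised at both times. Of these 114, 104 had a called negative change and 113 were lower in poly(I:C) fish at 24 h than at 3 h. A fall after a called rise at 3 h was thus not particular to the members. Over all tested probes 17.7% were raised at 3 h, 7.5% were raised at 24 h and 13.1% had a called negative change. In the 147 these shares were 77.6%, 21.8% and 71.4%, and in the members 15.3%, 2.94% and 13.5%. Rises at 25 °C and 3 h that were smaller or gone at 24 h were found in both sets, but the shares over all 170 members were near or below the background. In the 55 the 3 shares were 45.5%, 0% and 40%, and in the 115 others 0.87%, 4.35% and 0.87%. In the 118 of the 147 with the same array order at 15 °C as the 55, they were 88.1%, 26.3% and 83.1%. The median SE at 3 h was 0.544 over the members, 0.339 over the 147 and 0.201 over all tested probes. Shares called are therefore not compared at equal precision. At 15 °C, 118 of the 147 had all poly(I:C) arrays at 3 h above all 6 water arrays, against 55 of the members. Nothing is read from this difference, since the same arrays at 15 °C chose both sets. No test of the difference between the sets was made.

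Temperature, and time at 15 °C, are given as a description, since arrays at 15 °C enter both. In poly(I:C) fish at 3 h, 5 members were called higher and 35 lower at 25 °C than at 15 °C, 29 of the lower ones among the 55, against 20.4% and 26.8% of all tested probes. In water fish at 3 h, 47 were higher and 3 lower, 33 of the higher ones among the 115, against 14% and 13.5% of all tested probes. At 24 h the counts were 14 higher and 7 lower at 25 °C in poly(I:C) fish, against 19.3% and 22.7% of all tested probes, and 17 higher and 12 lower in water fish, against 17.5% and 10.4%. Between 24 h and 3 h at 15 °C, 0 members were higher and 59 lower in poly(I:C) fish, against 19.1% and 18.2% of all tested probes, and 0 were higher and 6 lower in water fish, against 0.0673% and 0.852%. High poly(I:C) arrays and low water arrays at 15 °C and 3 h are what chose the members, so nothing is read from these shares.

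The thresholds did not use the spread between replicate arrays in the 4 groups at 25 °C. In each group the median SD was higher in the members than in all tested probes. At 25 °C and 3 h this SD was 0.396 in poly(I:C) fish and 0.729 in water fish. Over all tested probes it was 0.191 and 0.272. A wider spread was not particular to the members. The 147 probes that kept the effect at 15 °C also exceeded all tested probes in each group, with 0.292 and 0.473 at 3 h. Nor was it even among the members, with 0.358 over the 55 and 0.863 over the 115 in water fish at 3 h. Whether the thresholds favour such probes was not tested. In the 115 members the first water array at 25 °C and 3 h had a centred median of 1.04, against 0.187 and -0.14 for the other two, so that group too held an array that stood apart in these probes.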

How the data were processed

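Spleen RNA was hybridised to 24 single-colour Agilent arrays, in 8 groups of 3 taken from the labels. Per the file headers, the deposited scanner files hold linear spot intensity after background subtraction in Agilent Feature Extraction 10.7.3.1, with no normalisation between arrays. Version 9.5.3.1 stands in the submitters' processing notes. The value table deposited by the authors holds log2 values with the method not stated. Its column medians ran from -0.16 to 0.11, and 99.98% of its values lay within 0.02 log2 of the scaling used here after removal of 1 constant per probe, so scale and direction are settled and the centring of each probe is not known. The background mark of each spot comes from the scanner files.

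The members were chosen on the deposited log2 values. For all tests, control spots and outlier spots (2 to 22 per array) were left out, spots of a probe were averaged as log2 processed signal, and each array was set to 0 at its 75th percentile. A probe was tested if at least 1 group had all its arrays well above background, which 13377 were. Group means over the 24 arrays were fitted with limma 3.58.1 (lmFit, eBayes; 16 residual degrees of freedom, prior 2.65) in R 4.3.3, with Benjamini-Hochberg adjustment over all tested probes, and checked on simulated data. Python 3.11.15, pandas 2.3.3, numpy 2.4.6 and matplotlib 3.10.9 were used besides. The number of arrays limits the precision.

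Probes named are, per comparison at 25 °C, up to 2 called members per direction with the largest change and no overlap between groups (called only, for the change of effect), the 2 with the largest effect at 15 °C and 3 h, the 2 with the lowest at 24 h, and the probes next to each threshold. The members, the comparisons and the alternatives were chosen with earlier results of these data known. CUST_7260 at 25 °C and the arrays named as low were singled out after their values were seen. Alternatives were other scalings, normexp background correction (with medians, as the files give no mean signal, and 50 units added), the deposited values, other filters and thresholds, slide and replicate blocks, fewer groups and leaving out each array of the compared groups. Same-numbered arrays deviated together between the times in poly(I:C) fish at 25 °C (correlations of 0.149, 0.143 and 0.167 across probes), as checked from the data, since the labels give the numbers no meaning.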

Additional observations from a re-analysis of the deposited data

Results flagged for a closer look

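In 5 named members the effect of poly(I:C) at 25 °C differed between 24 h and 3 h by limma's test of the difference itself, with Benjamini-Hochberg adjustment over all tested probes. The difference was -4.73 for CUST_9380 (adjusted p = 3.1e-05), -3.21 for CUST_6747 (adjusted p = 9.9e-05) and -2.78 for CUST_10106 (adjusted p = 0.022). For CUST_9380 no array was above background in 3 of the 4 groups, so -4.73 is no measured size. It was 3.00 for CUST_7720 (adjusted p = 0.01) and 1.61 for CUST_835 (adjusted p = 0.021). The first 3 had a higher signal in poly(I:C) fish than in water fish at 3 h on all arrays, and the last 2 a lower one on all arrays. With normexp background correction, the adjusted p was 0.18 for CUST_9380 and 0.14 for CUST_6747.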

How the results depend on the processing

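The number of members and of called members moved with the processing as follows, and the causes were not tested. The fits on the 12 arrays at 25 °C alone, without the water arrays at 15 °C and 3 h, and all those on the 55 members were added after the data were seen. Normexp background correction gave 101 members and, for the original 170, 19 called at 25 °C and 3 h, 0 at 24 h (9 at an unadjusted p under 0.05), 11 for the change of effect, 2 for time in water and 19 for time in poly(I:C) fish, and for the 55 it gave 16, 0 (4 unadjusted) and 10 in the first 3 of these. Of all tested probes it called 19.5%, 1.61%, 7.3%, 0.949% and 22.5% in the 5 comparisons. In the main fit these shares were 47%, 18.1%, 25.8%, 7.65% and 44.6%. Slide as a fixed block gave 93 members, 16 and 9 called at 3 h and 24 h, and 16 and 4 of the 55, against 17.1% and 12.1% of all tested probes. It gave 23 for the change of effect, 13 for time in water and 35 for time in poly(I:C) fish. These stand against 16.6%, 7.78% and 29.3% of all tested probes. With it CUST_3444 at 25 °C and 3 h turned to 0.0895. For the other fits no share over all tested probes is given, so a change in the members cannot be told from one in all probes. Slide 3 alone gave 2 at 24 h. A threshold of 0.01 gave 2 at 24 h, 15 for the change of effect and 5 for time in water. Members with an effect of at least 1.5 at 15 °C and 3 h, all but 105 of the 170, gave 22, 10 and 28 calls at 3 h, at 24 h and for time in poly(I:C) fish. The 109 members below 0 at 15 °C and 24 h gave 19, 7, 10, 5 and 19 calls in the 5 comparisons. Of the 42 members called at 15 °C and 3 h, and of the 55, 10 each were called at 24 h. These subsets were read in the main fit, to which its shares above apply. For the 55 at 24 h, median scaling gave 6, the 12 arrays at 25 °C alone 5, and the 2 compared groups alone 6. The compared groups alone gave 0 for time in water (24 unadjusted) and 68 for time in poly(I:C) fish. Leaving out each array at 15 °C in turn gave 137 to 320 members, where the highest was without replicate 1 of water at 15 °C and 3 h. For the calls, each array of the compared groups at 25 °C was left out in turn. No array at 15 °C was left out singly there, though those arrays enter the SEs. For the 170 this gave 29 to 39 calls at 3 h, 4 to 16 at 24 h and 20 to 30 for the change of effect. It gave 6 to 18 for time in water and 36 to 42 for time in poly(I:C) fish. For the 55 it gave 25 to 30, 4 to 10 and 20 to 25 in the first 3 of these. These fits assume that the 2 arrays left in a group vary like the other groups. Same-numbered arrays did not all deviate together between poly(I:C) and water (correlations of -0.164, -0.0801 and 0.0371 at 25 °C and 3 h, and 0.164, 0.0248 and 0.0839 at 25 °C and 24 h, not all over 0.1). The main fit paired them in no comparison, including that between the times in poly(I:C) fish, and the replicate block was an alternative only. With the replicate block the 5 counts were 35, 15, 24, 12 and 46 (against 36, 16, 25, 11 and 45), and none moved by over 1.5 times. What dim signals limit is seen in the 22 members not detected in poly(I:C) at 15 °C and 3 h.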

Other observations

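On the array, 20 probes for known database sequences passed the same thresholds at 15 °C as the members, which are contig probes only. At 25 °C and 3 h, 4 of these 20 (20%) were raised by poly(I:C) and 1 (5%) was lowered, against 17.7% and 29.3% of all tested probes. At 24 h 0 were raised and 1 (5%) was lowered, against 7.5% and 10.6% (limma, Benjamini-Hochberg adjusted p under 0.05 over all tested probes), with 0 raised and 4 lowered at an unadjusted p under 0.05. The shares raised are near the background at 3 h and below it at 24 h.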
